A study of Mus musculus with 4 samples.

Results

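The genes described here encode the subunits of the 5 oxidative phosphorylation complexes that are made from the nuclear genome of the mouse. They were chosen by name alone: every gene whose symbol begins with Ndufa, Ndufb, Ndufc, Ndufs or Ndufv and a number, with Uqcr, with Cox4 to Cox8 or with Atp5, and the 4 genes Sdha to Sdhd, without forms marked -ps. Of the 39179 genes listed in the count files, 88 met the name rule, and 85 of these had 10 or more counts in at least 2 embryos and are the members. They comprise 40 genes of complex I, 4 of complex II, 8 of complex III, 16 of complex IV and 17 of complex V. The annotation gives 81 of the 85 as protein coding and 4 (Cox6c2, Ndufa11b, Ndufb4c and Ndufs6b) as processed pseudogenes.

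The data were RNA-seq counts of 4 single chimeric mouse embryos dissected at E8.5, whose development was about a day behind, so that their stage was given as E7.75. In 2 of them the injected mouse embryonic stem cells (ESCs) carried a doxycycline-inducible FLAG-Lhx1 transgene, which encodes the epitope-tagged transcription factor LHX1, and in the other 2 an inducible FLAG-Lhx1-mt, named FLAG-Lhx1-Δ elsewhere in the labels; what it changes was not given in the sources used here. Before injection into 8-cell hosts the ESCs were kept in 2i medium; the hosts came from an ARC by RLZRFP cross, and embryos of high ESC contribution were kept, so host cells remain in each embryo. All 4 embryos received doxycycline through the mother's drinking water (2 mg/mL with 5% sucrose, 24 h); no uninduced embryo was analysed here. How many ESC clones were used, and whether embryos shared a litter, was not given in the sources used here, so p-values measure the spread between these embryos.

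Total counts were 25272436 and 21267116 in FLAG-Lhx1 replicates 1 and 2, and 23088545 and 30434442 in FLAG-Lhx1-mt replicates 1 and 2, and 3 counts corresponded to 0.0959 to 0.153 CPM (counts scaled to a common library size with TMM, which allows for a few genes that take many counts). These floors cover counting error only, since the libraries carry no molecular identifiers. Lhx1 itself stood at 129 and 114 CPM in FLAG-Lhx1 and at 126 and 98.5 CPM in FLAG-Lhx1-mt (log2 fold 0.11 ± 0.16 SE, edgeR adjusted p = 0.733); counts per gene cannot tell transgene reads from those of the endogenous gene. All fold changes are FLAG-Lhx1 minus FLAG-Lhx1-mt, n = 2 embryos per group, and a gene was called when its edgeR adjusted p over the 15822 tested genes was under 0.05.

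Oxidative phosphorylation makes ATP in the inner mitochondrial membrane. Complexes I and II take electrons from NADH and succinate and pass them to coenzyme Q, complex III passes them on to cytochrome c, complex IV delivers them to oxygen, and complex V, the ATP synthase, uses the proton gradient built by complexes I, III and IV. Most subunits are encoded in the nucleus and imported; a few membrane subunits of complexes I, III, IV and V are encoded in mitochondrial DNA. Embryos at gastrulation are known for a high rate of glycolysis beside mitochondrial respiration.

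Of the 84 members that passed the low-count filter, 5 were called lower in FLAG-Lhx1 (5.95%, where 3.55% of all tested genes were called lower and 6.17% in either direction) and none higher by edgeR. The 5 were Ndufv1 and Ndufs8 of complex I, Uqcrc1 of complex III, Cox8a of complex IV and Atp5d of complex V, each at log2 folds of -0.58 to -0.79. These 5 are grouped only by having passed the cutoff, and whether they are regulated together was not tested. The 300 bases around their annotated starts (250 before, 50 after) are printed here for comparison. They are from RefSeq on GRCm38.p6, each 5′ to 3′ on the gene's own strand. The 4 motifs known from promoters of respiratory genes that were searched on both strands, with matches in capitals, were GCATGCGC (a core of the NRF1 site), CCGGAAG (the ETS family, which includes NRF2/GABP), AAGATGGC (YY1) and GGGCGG (SP1). The windows are chr19:4012706-4013005 on the minus strand for Ndufv1, chr19:3912725-3913024 on the minus strand for Ndufs8, chr9:108936398-108936697 on the plus strand for Uqcrc1, chr19:7217567-7217866 on the minus strand for Cox8a and, of a pair of overlapping windows, chr10:80142025-80142324 on the plus strand for Atp5d.
Ndufv1: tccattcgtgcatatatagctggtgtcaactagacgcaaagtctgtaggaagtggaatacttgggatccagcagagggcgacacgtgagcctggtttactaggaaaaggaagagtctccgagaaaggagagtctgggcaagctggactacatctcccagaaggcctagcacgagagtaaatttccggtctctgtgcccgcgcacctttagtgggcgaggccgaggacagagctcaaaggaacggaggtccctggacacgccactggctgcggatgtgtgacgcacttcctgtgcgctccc
Ndufs8: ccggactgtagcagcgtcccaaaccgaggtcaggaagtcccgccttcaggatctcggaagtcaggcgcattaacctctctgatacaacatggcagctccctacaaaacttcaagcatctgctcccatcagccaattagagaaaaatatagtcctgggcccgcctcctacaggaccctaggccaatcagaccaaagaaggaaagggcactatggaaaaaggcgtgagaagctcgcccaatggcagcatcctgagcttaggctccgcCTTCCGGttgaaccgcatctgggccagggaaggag
Uqcrc1: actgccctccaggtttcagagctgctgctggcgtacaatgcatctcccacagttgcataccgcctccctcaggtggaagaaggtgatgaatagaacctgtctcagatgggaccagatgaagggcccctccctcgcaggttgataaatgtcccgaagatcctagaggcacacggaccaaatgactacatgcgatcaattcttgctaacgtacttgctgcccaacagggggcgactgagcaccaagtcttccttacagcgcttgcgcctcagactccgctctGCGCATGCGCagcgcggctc
Cox8a: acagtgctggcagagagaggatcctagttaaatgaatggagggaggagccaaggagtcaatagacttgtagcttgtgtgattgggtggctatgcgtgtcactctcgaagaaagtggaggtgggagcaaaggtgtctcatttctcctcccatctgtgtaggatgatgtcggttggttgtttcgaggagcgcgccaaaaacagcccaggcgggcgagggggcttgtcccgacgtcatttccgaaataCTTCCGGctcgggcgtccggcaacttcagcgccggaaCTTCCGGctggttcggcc
Atp5d: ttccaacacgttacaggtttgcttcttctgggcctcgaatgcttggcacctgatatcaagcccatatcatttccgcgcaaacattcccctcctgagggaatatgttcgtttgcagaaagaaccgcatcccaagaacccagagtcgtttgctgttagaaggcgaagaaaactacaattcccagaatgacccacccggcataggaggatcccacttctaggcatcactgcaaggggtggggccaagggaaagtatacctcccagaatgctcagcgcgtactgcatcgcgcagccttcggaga
The Uqcrc1 window holds the NRF1 letters on both strands in one overlapping stretch close to the start. The Cox8a window holds the ETS letters at 2 places and the Ndufs8 window at 1, all on the opposite strand, so that they read CTTCCGG. The Ndufv1 window and both Atp5d windows hold none of the 4 motifs. No motif was therefore shared by all 5.

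RefSeq windows were matched for 65 of the 85 members, 70 windows in all. The NRF1 letters were in 10 of the 70 (14.3%), against 2.71% of all 32851 mouse windows of this length. The ETS letters were in 16 (22.9% against 8.86%), the YY1 letters in 9 (12.9% against 2.75%) and the SP1 letters in 27 (38.6% against 35.7%). The NRF1, ETS and YY1 letters were thus more frequent among the members' windows and the SP1 letters about as frequent as elsewhere. These are matches of letters, not measured binding sites.

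Summed over the 85 members, the level was 26476 and 32214 CPM in the FLAG-Lhx1 embryos and 30465 and 32805 CPM in the FLAG-Lhx1-mt embryos, or 29345 ± 4057 and 31635 ± 1654 (mean ± SD, n = 2). The groups overlapped: FLAG-Lhx1 replicate 1 was the lowest embryo, and the other 3 lay close together. On this TMM scale the ratio of group means, 1.08, was smaller than the ratio of 1.22 between the FLAG-Lhx1 embryos themselves. Without TMM, the members took 2.75% and 2.98% of all counts in FLAG-Lhx1 and 3.07% and 3.37% in FLAG-Lhx1-mt. These shares did not overlap, so the overlap of the groups depends on the scaling. The TMM factors were 1.04 and 0.926 in FLAG-Lhx1 and 1.01 and 1.03 in FLAG-Lhx1-mt.

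The same embryo was low in most members one by one. FLAG-Lhx1 replicate 1 had the lowest CPM of the 4 embryos in 59 of 84 members (70.2%), against 24.1% of all tested genes, while FLAG-Lhx1 replicate 2 was the highest in 34. The median log2 difference of replicate 2 minus replicate 1 was 0.25 over the members within FLAG-Lhx1 and 0.11 within FLAG-Lhx1-mt, beside 0.004 and -0.02 over all genes. With each member centred on its own mean, the mean log2 profile of the set was -0.19 and 0.07 in FLAG-Lhx1 and 0.03 and 0.09 in FLAG-Lhx1-mt. The members that lay nearest this profile were Ndufb10, Atp5o, Ndufb9, Atp5h and Atp5g2, by the root mean square distance over the 4 embryos (0.029 for Ndufb10 to 0.042 for Atp5g2). Ndufb10, an accessory subunit of complex I, shows the pattern, with 238 and 281 CPM in FLAG-Lhx1 and 285 and 285 CPM in FLAG-Lhx1-mt.

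By complex, the sums followed the whole. Complex I summed to 9685 and 12305 CPM in FLAG-Lhx1 and to 11126 and 12154 CPM in FLAG-Lhx1-mt. Complex II summed to 1227 and 1439 against 1516 and 1387 CPM, and complex III to 3498 and 4149 against 4068 and 4447 CPM. Complex IV summed to 4259 and 5362 against 4940 and 5559 CPM, and complex V to 7807 and 8958 against 8816 and 9258 CPM. In TMM-scaled CPM the groups overlapped in all 5 complexes, with FLAG-Lhx1 replicate 1 lowest in each. As shares of all counts only complex I overlapped, at 1.00% and 1.14% in FLAG-Lhx1 against 1.12% and 1.25% in FLAG-Lhx1-mt. In complexes II, III, IV and V both FLAG-Lhx1 shares lay below both FLAG-Lhx1-mt shares.

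**Figure D1:**
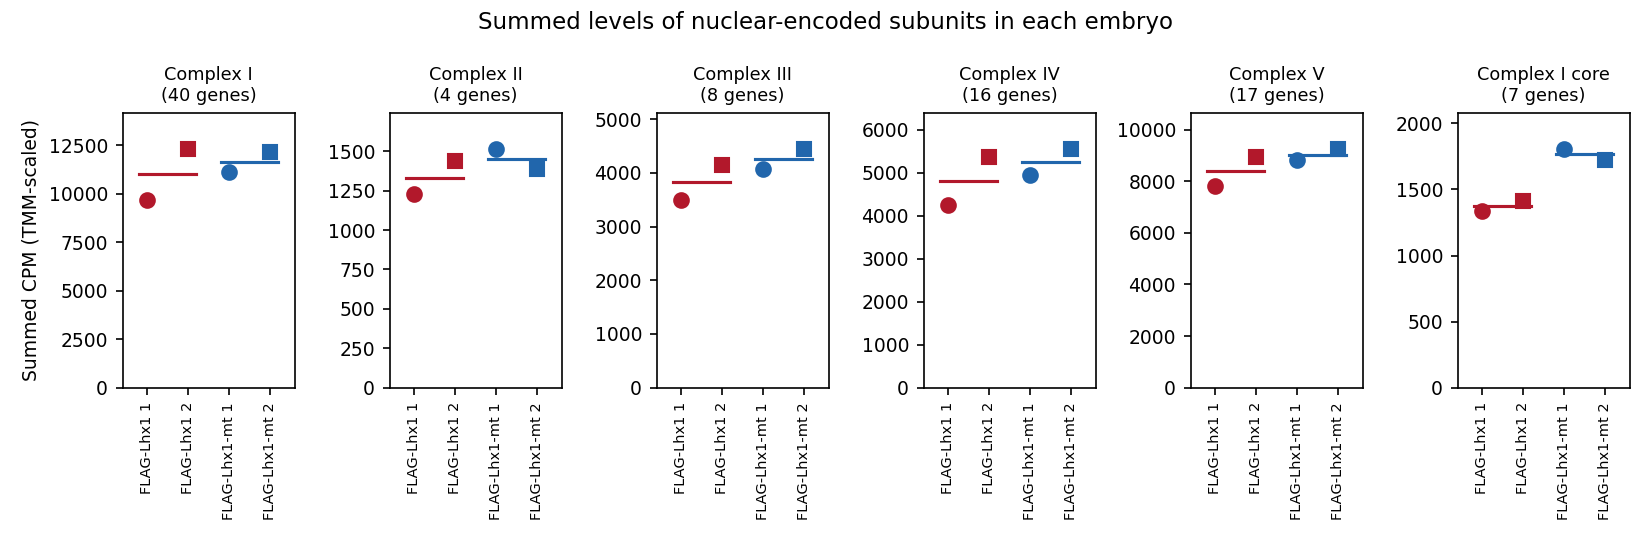
Summed CPM (vertical axes, from 0, a scale for each panel) of the member genes of each complex and of the 7 core subunits of complex I in each embryo; circles are replicate 1, squares replicate 2, red FLAG-Lhx1, blue FLAG-Lhx1-mt, and lines the means of 2 embryos. FLAG-Lhx1 replicate 1 is the lowest in every complex, and only the core panel shows both FLAG-Lhx1 embryos (1334 and 1414) below both FLAG-Lhx1-mt embryos (1808 and 1724).

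No member was called higher by edgeR, DESeq2 or limma-voom, which called 2.62%, 3.1% and 2.94% of all genes higher. DESeq2 called 9 members lower and limma-voom 7, where they called 4.49% and 3.5% of all genes lower. By edgeR's unadjusted p under 0.05, 13 members were lower and 1 higher, or 15.5% and 1.19% of the 84, where 11.3% of all genes were lower and 9.94% higher. The FLAG-Lhx1 embryos lay below both FLAG-Lhx1-mt embryos in 24 members and above both in 4, and overlapped in 56; of all genes, 25.8% lay below and 26.4% above, 52.2% together. The share of members without overlap below was thus 28.6%, near the background, and that above was 4.76%. Folds were small: 76 of the 84 members (90.5%) were within 0.5 of 0 on the log2 scale, against 67.9% of all genes. The median log2 fold was -0.08 over the members and 0.009 over all genes, and 66.7% of the members against 49.1% of all genes had a fold below 0. The median was -0.06 in complex I, -0.17 in complex II, -0.14 in complex III, -0.13 in complex IV and -0.08 in complex V. With FLAG-Lhx1 replicate 1 left out, 2 members were called lower, where 2.28% of all genes were, and the median was -0.0037. With FLAG-Lhx1-mt replicate 2 left out, 10 were called lower, where 5.76% of all genes were.

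**Figure D2:**
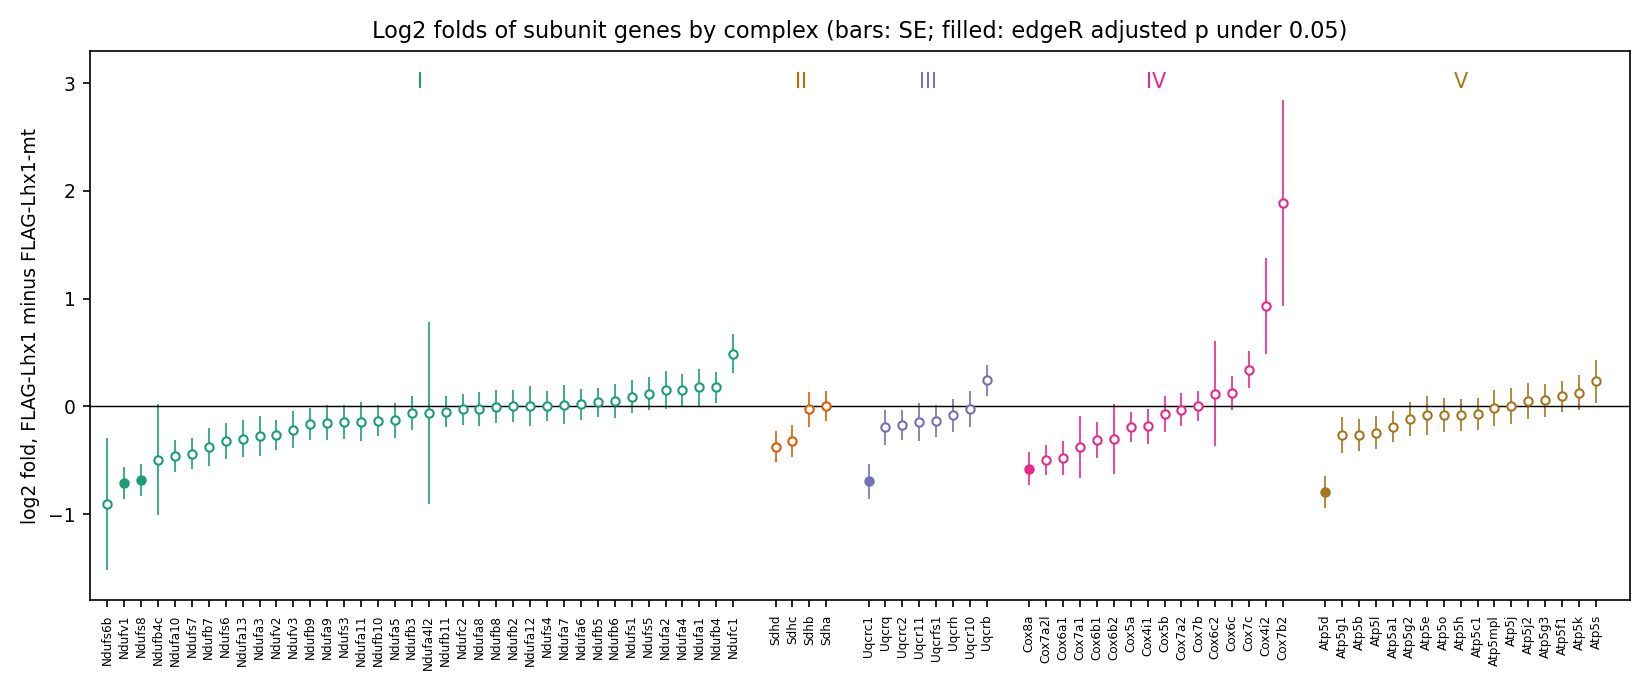
Log2 fold of FLAG-Lhx1 minus FLAG-Lhx1-mt (vertical axis) for 83 of the 84 tested members, ordered within complexes I to V; bars are standard errors and filled points are the 5 genes called. Most members lie within 0.5 of 0, and the wide bars belong to genes with few counts such as Cox7b2, Ndufa4l2 and Ndufs6b.

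Complex I has 7 nuclear-encoded core subunits, which carry the flavin and iron-sulfur clusters and form the peripheral arm, and many accessory subunits around them. Summed, the core stood at 1334 and 1414 CPM in FLAG-Lhx1 and at 1808 and 1724 CPM in FLAG-Lhx1-mt, without overlap and with a ratio of means of 1.28. The other 33 complex I genes summed to 8351 and 10891 against 9318 and 10431 CPM, which overlapped. The median log2 fold was -0.44 over the 7 core genes, of which 2 were called lower, and -0.04 over the 32 other genes tested, of which none was called. Over all tested genes edgeR called 3.55% lower and 6.17% in either direction. With GC and length offsets the medians of the core and of the other genes were -0.24 and 0.09. The difference between core and other genes has no test of its own, and the core genes were listed with earlier results of these data known.

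Ndufv1 (ENSMUSG00000037916, chr19:4007384-4012806), the flavoprotein subunit where NADH is oxidised, was at 71.5 and 68.9 CPM in FLAG-Lhx1 and at 124 and 106 CPM in FLAG-Lhx1-mt. It fell by 0.71 ± 0.15 on the log2 scale (SE, n = 2 per group, edgeR adjusted p = 0.011), with no overlap between the groups; without FLAG-Lhx1 replicate 2 the adjusted p was 0.068. Ndufs8 (ENSMUSG00000059734, chr19:3908863-3912774), which carries iron-sulfur clusters on the path to coenzyme Q, was at 159 and 190 CPM against 285 and 276 CPM. It fell by 0.68 ± 0.15 (edgeR adjusted p = 0.013), again without overlap; without FLAG-Lhx1 replicate 1 the adjusted p was 0.102.

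Other core genes did not pass the test. Ndufs7, which holds the last iron-sulfur cluster before coenzyme Q, was at 160 and 175 CPM in FLAG-Lhx1 and at 236 and 218 CPM in FLAG-Lhx1-mt (log2 fold -0.44 ± 0.14, edgeR adjusted p = 0.079). Ndufv2, the partner of Ndufv1 in the NADH-oxidising module, was at 388 and 387 against 450 and 483 CPM. In both genes the FLAG-Lhx1 embryos lay below both FLAG-Lhx1-mt embryos, while Ndufs3 and Ndufs1 overlapped between the groups. Ndufs3 was at 183 and 241 against 241 and 229 CPM, and Ndufs1, the largest core subunit, was at 156 and 127 against 143 and 122 CPM (log2 fold 0.09).

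Among the accessory genes of complex I, Ndufc1, a small subunit of the membrane arm, had the highest fold of all members with at least 5 CPM. It was at 237 and 366 CPM in FLAG-Lhx1 and at 212 and 217 CPM in FLAG-Lhx1-mt (log2 fold 0.49 ± 0.18, edgeR adjusted p = 0.123), so the groups did not overlap but replicate 2 of FLAG-Lhx1 stood far above the other 3 embryos. Without FLAG-Lhx1 replicate 1 its log2 fold was 0.74 and its edgeR adjusted p 0.012, and without FLAG-Lhx1 replicate 2 these were 0.15 and 0.817. Ndufa10, an accessory subunit of the membrane arm, was at 106 and 118 against 170 and 139 CPM (-0.46 ± 0.15, edgeR adjusted p = 0.085). Ndufa4, grouped with complex I by its name but known as a subunit of complex IV, was at 709 and 842 against 652 and 745 CPM and overlapped.

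No gene of complex II, which links the tricarboxylic acid cycle to the chain, was called. Sdha, the flavoprotein that oxidises succinate, was at 277 and 291 CPM in FLAG-Lhx1 and at 299 and 269 CPM in FLAG-Lhx1-mt, a log2 fold of 0.00 and the highest of the 4. Sdhb, the iron-sulfur subunit, was at 581 and 784 against 708 and 681 CPM, and also overlapped. The membrane anchors were lower in both FLAG-Lhx1 embryos without passing the test. Sdhc was at 59.8 and 61.4 against 81.4 and 70.2 CPM (log2 fold -0.32 ± 0.15, edgeR adjusted p = 0.229). Sdhd was at 310 and 302 against 428 and 366 CPM (log2 fold -0.37 ± 0.14, edgeR adjusted p = 0.146). In fits without 1 embryo its log2 fold ran from -0.50 to -0.26. With GC and length offsets it was -0.21 (edgeR adjusted p = 0.417).

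In complex III, Uqcrc1 (ENSMUSG00000025651, chr9:108936633-108949623), a core subunit on the matrix side, was at 362 and 407 CPM in FLAG-Lhx1 and at 709 and 536 CPM in FLAG-Lhx1-mt. It fell by 0.70 ± 0.16 on the log2 scale (edgeR adjusted p = 0.020), and the FLAG-Lhx1-mt embryos differed from each other more than the FLAG-Lhx1 embryos did. With FLAG-Lhx1 replicate 1 left out its edgeR adjusted p was 0.066, and with FLAG-Lhx1-mt replicate 1 left out it was 0.057. Its partner core subunit Uqcrc2 was at 215 and 220 against 257 and 235 CPM (log2 fold -0.18 ± 0.14, edgeR adjusted p = 0.507). Uqcrfs1, the Rieske iron-sulfur protein, was at 233 and 184 against 239 and 220 CPM and overlapped. Uqcrb, which sits beside the coenzyme Q site of cytochrome b, had the highest fold of the complex, with 456 and 520 against 392 and 434 CPM (0.24 ± 0.15, edgeR adjusted p = 0.372).

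The name rule leaves out Cyc1, the cytochrome c1 subunit of complex III, which was called. It was at 194 and 189 CPM in FLAG-Lhx1 and at 322 and 285 CPM in FLAG-Lhx1-mt, and fell by 0.66 ± 0.14 on the log2 scale (edgeR adjusted p = 0.013); without FLAG-Lhx1 replicate 2 the adjusted p was 0.077. It was chosen for a list of subunits outside the name rule, of which 8 were tested and no other gene was called. Over all tested genes edgeR called 3.55% lower.

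In complex IV, Cox8a (ENSMUSG00000035885, chr19:7215153-7217616), the widely expressed isoform of a small membrane subunit, was at 253 and 307 CPM in FLAG-Lhx1 and at 397 and 440 CPM in FLAG-Lhx1-mt. It fell by 0.58 ± 0.15 on the log2 scale (edgeR adjusted p = 0.034), without overlap; without FLAG-Lhx1 replicate 1 the adjusted p was 0.244. A pair of other genes came close to the threshold, both with the FLAG-Lhx1 embryos lowest. Cox7a2l, which helps to join complexes III and IV in supercomplexes, was at 120 and 138 against 176 and 187 CPM (-0.50 ± 0.14, edgeR adjusted p = 0.051). Cox6a1 was at 257 and 340 against 420 and 413 CPM (-0.48 ± 0.16, edgeR adjusted p = 0.084).

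Other complex IV genes differed less. Cox4i1, the largest nuclear-encoded subunit, was at 566 and 723 CPM in FLAG-Lhx1 and at 667 and 799 CPM in FLAG-Lhx1-mt and overlapped. Cox5a was at 163 and 170 against 183 and 198 CPM, below in both FLAG-Lhx1 embryos by a small margin, and Cox5b at 371 and 534 against 476 and 475 CPM, where the FLAG-Lhx1 embryos lay on either side. Cox7c, with the highest fold of the complex above 5 CPM, was at 573 and 727 against 441 and 585 CPM (0.34 ± 0.17, edgeR adjusted p = 0.267); it was called higher with FLAG-Lhx1-mt replicate 2 left out (0.55, edgeR adjusted p = 0.036), but was at 0.14 (0.724) without FLAG-Lhx1-mt replicate 1 and at 0.17 (0.793) without FLAG-Lhx1 replicate 2.

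In complex V, Atp5d (ENSMUSG00000003072, chr10:80138632-80145818), the delta subunit of the central stalk of F1, was at 40.3 and 42.3 CPM in FLAG-Lhx1 and at 74.5 and 68.8 CPM in FLAG-Lhx1-mt. It fell by 0.79 ± 0.15 on the log2 scale (edgeR adjusted p = 0.0062), the largest fall among members with at least 5 CPM. It was the 1 member also called in all 17 alternative fits. The rest of F1, the catalytic head, differed less and passed no test. Atp5b, the catalytic beta subunit, was at 1276 and 1253 against 1579 and 1461 CPM, and Atp5a1, the alpha subunit, at 741 and 729 against 839 and 838 CPM; neither pair of groups overlapped. Atp5c1, the gamma subunit that turns in the head, was at 719 and 765 against 834 and 726 CPM, and Atp5e, the epsilon subunit, at 169 and 262 against 212 and 244 CPM, and both overlapped. Summed, the 5 F1 genes were at 2945 and 3050 CPM in FLAG-Lhx1 and at 3537 and 3339 CPM in FLAG-Lhx1-mt, with no overlap and a median log2 fold of -0.19.

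In TMM-scaled CPM the summed genes of the membrane ring and Atp5o of the peripheral stalk overlapped between the groups. As shares of all counts the ring sum did not, at 0.143% and 0.150% in FLAG-Lhx1 and 0.152% and 0.190% in FLAG-Lhx1-mt. Of the ring genes Atp5g2 alone did not overlap, at 43.4 and 48.1 CPM in FLAG-Lhx1 against 48.3 and 51.0 CPM in FLAG-Lhx1-mt. The 3 genes Atp5g1, Atp5g2 and Atp5g3, which encode the same mature ring protein, summed to 1379 and 1624 CPM in FLAG-Lhx1 and to 1509 and 1851 CPM in FLAG-Lhx1-mt, with replicate 2 above replicate 1 in both groups. Atp5o, the stalk subunit that grips F1, was at 810 and 1037 against 939 and 1014 CPM, although exons of other genes cover 47.9% of its exon bases and its counts are uncertain. Atp5s, a factor linked to the coupling of the synthase, had the highest fold of the complex, with 19.7 and 23.6 against 16.8 and 20.1 CPM (0.23 ± 0.20, edgeR adjusted p = 0.552).

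**Figure D3:**
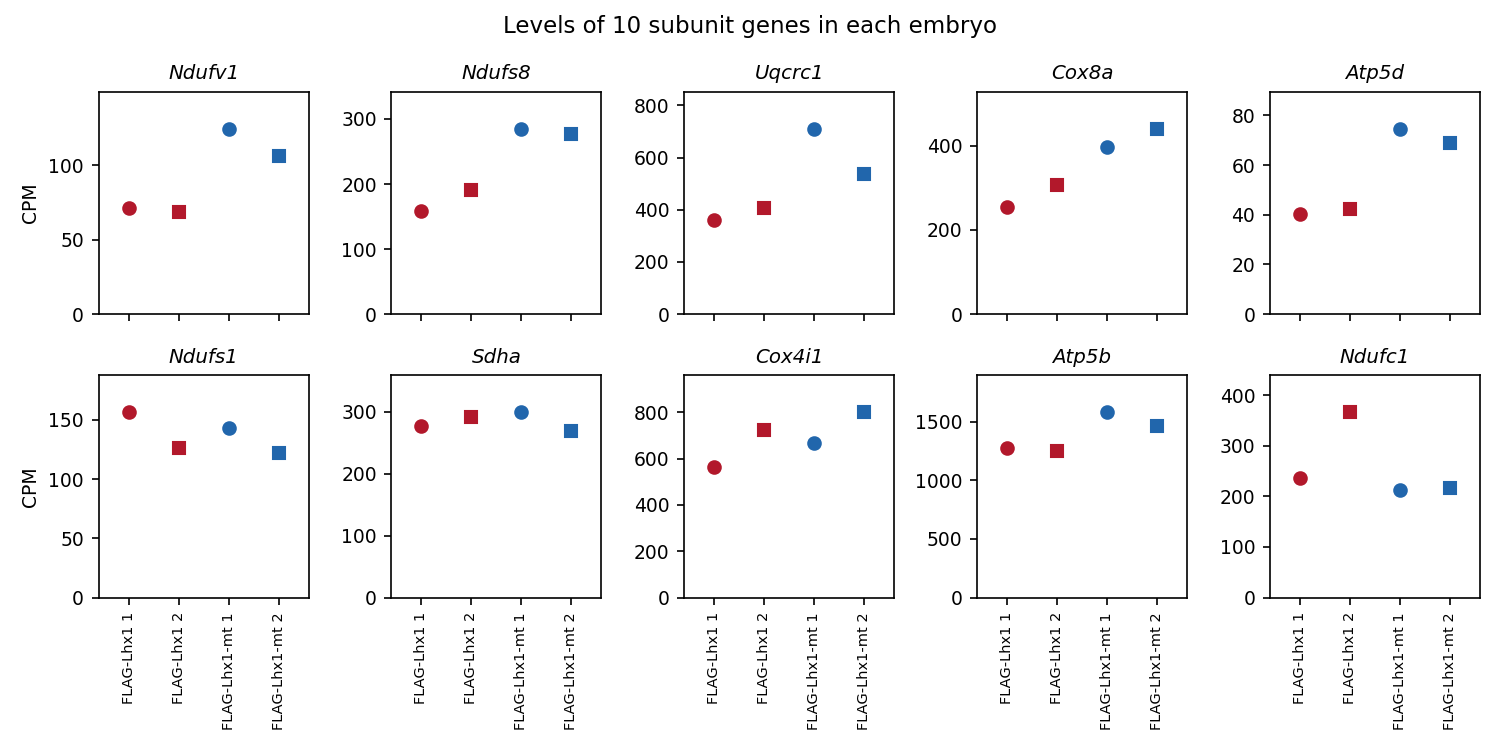
CPM of 10 member genes in each embryo (vertical axes from 0, a scale for each panel; circles replicate 1, squares replicate 2, red FLAG-Lhx1, blue FLAG-Lhx1-mt). The upper row holds the 5 genes called, in which both FLAG-Lhx1 embryos lie below both FLAG-Lhx1-mt embryos; in the lower row Ndufs1, Sdha and Cox4i1 overlap, Atp5b does not overlap but was not called, and Ndufc1 is highest in FLAG-Lhx1 replicate 2.

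Levels of different genes were compared as CPM per kilobase of merged exon, averaged over the 4 embryos. The highest was Uqcr11, a small subunit of complex III, at 1208 CPM per kilobase, followed by Ndufa2 of complex I at 1120, Cox6b1 of complex IV at 976, Uqcr10 of complex III at 932 and Cox7a2 of complex IV at 762. Across embryos Uqcr11 ran from 945 to 1375 and Ndufa2 from 974 to 1383 CPM per kilobase, so these neighbours in the order did not differ beyond their spread. Cox6b1 ran from 735 to 1154, overlapping with both in range, and was below Uqcr11 in each embryo. The highest gene of complex II was Sdhb at 308 and that of complex V Atp5o at 482 CPM per kilobase; over the longest transcript in place of merged exons these were 559 and 1020. That choice also changes the top of the order: Ndufa7 of complex I, at 493 CPM per kilobase of merged exon, was at 1409 over its longest transcript, above Uqcr11 at 1280. The median over members was 161 in complex I, 177 in complex II, 434 in complex III, 201 in complex IV and 214 in complex V. Of the 5 called genes Cox8a stood highest at 564 CPM per kilobase.

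Several subunits of complex IV exist as a widely expressed and a tissue-restricted isoform, and in each pair the widely expressed form was far the higher per kilobase. Cox4i1 averaged 444 and Cox4i2, known from lung and the hypoxia response, 4.69 CPM per kilobase. Cox7a2 averaged 762 and Cox7a1, the heart and muscle form, 17.2 CPM per kilobase. Cox6b1 averaged 976 against 4.12 for the testis form Cox6b2, and Cox7b averaged 361 against 0.678 for the testis form Cox7b2. In each embryo the order within these pairs was the same. The muscle forms Cox6a2 (0, 2, 0 and 0 counts) and Cox8b (0, 1, 0 and 0 counts) and the testis form Cox8c (0, 0, 3 and 0 counts) fell outside the count rule, with no count above the limit of 3 that a count of 0 allows. Just inside it were Ndufa11b with 10, 4, 2 and 16 counts, which did not enter the test, Cox7b2 with 15, 12, 0 and 9, and Ndufa4l2, a hypoxia-linked relative of Ndufa4, with 4, 15, 16 and 8.

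Cox4i2 was low in every embryo, at 4.66 and 4.99 CPM in FLAG-Lhx1 and at 3.95 and 1.18 CPM in FLAG-Lhx1-mt, and its log2 fold of 0.93 ± 0.44 did not pass the test (edgeR adjusted p = 0.242). FLAG-Lhx1-mt replicate 2 stood apart at the low end: without it the log2 fold was 0.27 (edgeR adjusted p = 0.727), and without FLAG-Lhx1-mt replicate 1 it was 2.02 (edgeR adjusted p = 0.00018). Cox7a1 was at 6.07 and 9.97 against 8.46 and 12.2 CPM, and overlapped. Of the 3 ring genes of complex V, per kilobase Atp5g3 averaged 225, Atp5g1 214 and Atp5g2 28.5 CPM; the first 2 overlapped across embryos and Atp5g2 lay below both in each embryo. Over the longest transcript in place of merged exons they averaged 569, 223 and 63.4, so the closeness of Atp5g3 and Atp5g1 depends on the length used.

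**Figure D4:**
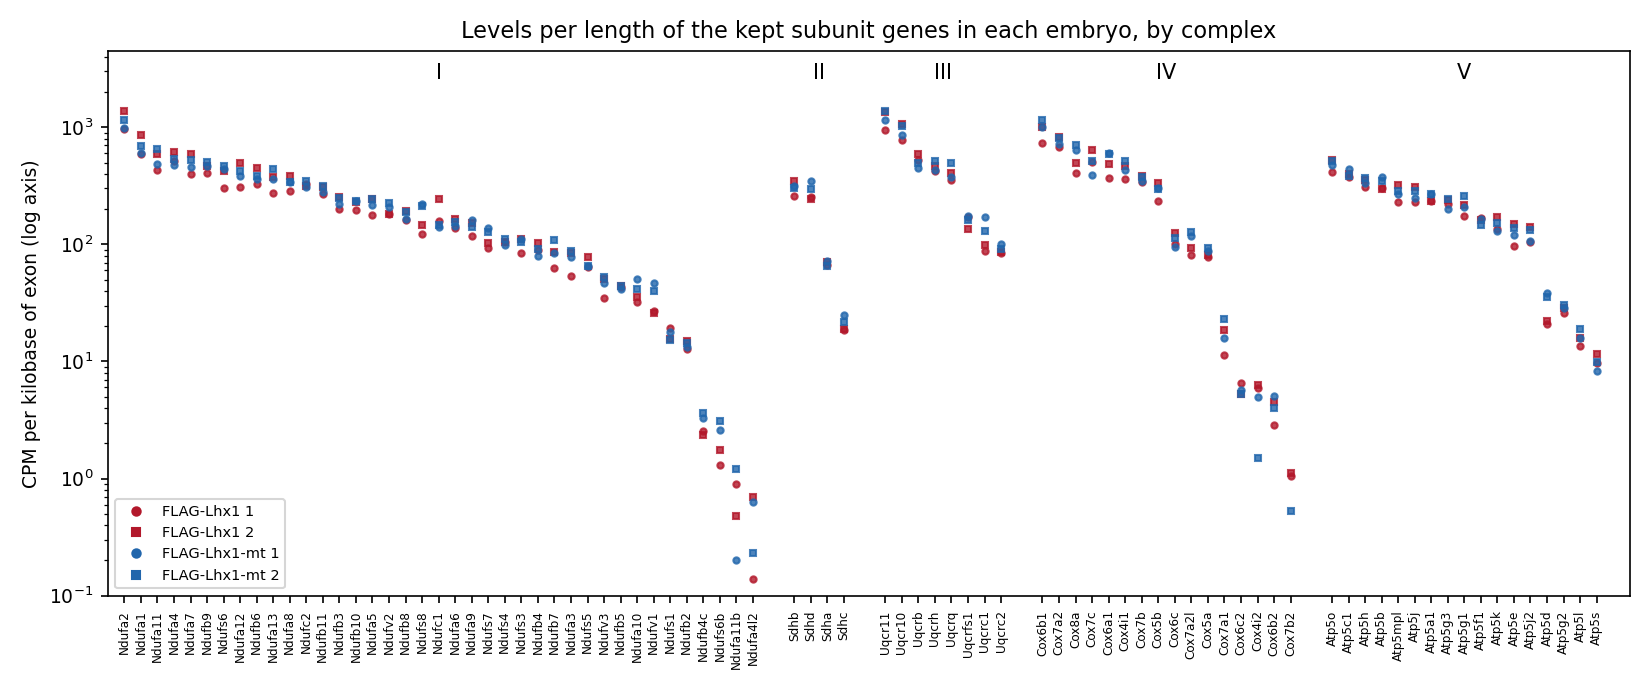
CPM per kilobase of merged exon (log axis) of 84 of the 85 members in each embryo, ordered within complexes I to V; circles are replicate 1, squares replicate 2, red FLAG-Lhx1 and blue FLAG-Lhx1-mt, and a value of 0 (Cox7b2 in FLAG-Lhx1-mt replicate 1) is not drawn. Embryos lie close together for abundant genes, while the processed pseudogenes and restricted isoforms form the low tail of complexes I and IV.

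Across the 84 members the log2 fold and the GC content of the longest transcript had a Spearman rho of -0.45, beside -0.16 over all tested genes, so members with GC-rich transcripts had the lower folds; the points share 4 libraries and genes are not independent. Embryos of the same group also differed with GC. For replicate 2 minus replicate 1, rho was 0.25 over the members and 0.03 over all genes within FLAG-Lhx1. Within FLAG-Lhx1-mt these were -0.16 and 0.20. Members under 45% GC (15 genes) had a median log2 fold of 0.003 and no call, those from 45 to 50% (24) -0.05 and no call, those from 50 to 55% (29) -0.14 and 2 calls, and those of 55% or more (16) -0.24 and 3 calls. The medians of all tested genes over the same bands were 0.14, 0.006, -0.08 and -0.10, and 1.02%, 2.32%, 5.38% and 5.86% of them were called lower. The GC contents of the called members were 59.3% for Atp5d, 58.5% for Cox8a, 56.7% for Ndufv1, 54.8% for Ndufs8 and 53.0% for Uqcrc1. Cyc1 was at 61.4%.

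Members are also short, with a median longest transcript of 983 bases against 3261 over all tested genes, and the rho of fold with length was -0.13 over the members and 0.25 over all genes. For replicate 2 minus replicate 1, rho with length was -0.29 over the members and -0.09 over all genes within FLAG-Lhx1. Within FLAG-Lhx1-mt these were -0.21 and 0.09. With offsets for each embryo's dependence on GC and length, Atp5d (-0.63, edgeR adjusted p = 0.026) and Ndufv1 (-0.54, edgeR adjusted p = 0.049) were called, where 2.57% of all genes were called lower and 1.91% higher. In that fit Ndufs8 was at -0.45 (edgeR adjusted p = 0.076), Uqcrc1 at -0.59 (edgeR adjusted p = 0.059) and Cox8a at -0.31 (edgeR adjusted p = 0.228). The median of the members turned from -0.08 to 0.06 with both offsets, was 0.06 with the length offset alone, and stayed at -0.08 with the GC offset alone. The sign of the set's median thus changed with the length offset.

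**Figure D5:**
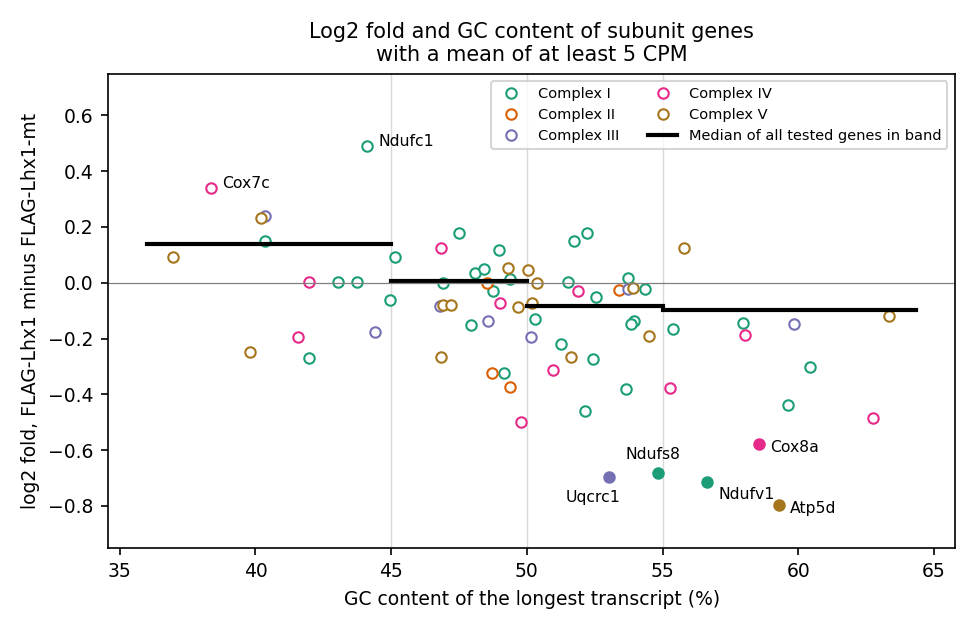
Log2 fold of FLAG-Lhx1 minus FLAG-Lhx1-mt (vertical axis) against GC content of the longest transcript (horizontal axis, percent) for members with a mean of at least 5 CPM, coloured by complex; filled points are the 5 genes called, and black lines are medians of all tested genes in 4 bands of GC content. The called genes lie at 53.0% to 59.3% GC, and the highest folds, Ndufc1 and Cox7c, lie under 45%.

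By position, 3 of the 5 called members (Ndufs8, Ndufv1 and Cox8a) lie on chromosome 19, which holds 4 members with a median log2 fold of -0.63. Over all 514 tested genes of chromosome 19 the median was -0.03 and 5.06% were called lower. Ndufs8 and Ndufv1 start within the same part of the chromosome, 3908863 to 4012806.

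The 13 subunits encoded in mitochondrial DNA summed to 22793 and 29077 CPM in FLAG-Lhx1 and to 24996 and 24008 CPM in FLAG-Lhx1-mt. None of the 11 tested was called by edgeR, DESeq2 or limma-voom, and 0 had an unadjusted p under 0.05 by edgeR; their median log2 fold was 0.15. Of all tested genes, edgeR called 3.55% lower and 2.62% higher, DESeq2 4.49% and 3.1%, and limma-voom 3.5% and 2.94%. By edgeR's unadjusted p these shares were 11.3% and 9.94%, so few calls could arise among 11 genes. FLAG-Lhx1 replicate 1 was again the lowest embryo, and replicate 2 of the same group was the highest. The ratio of nuclear to mitochondrial subunit CPM was 1.16 and 1.11 in FLAG-Lhx1 and 1.22 and 1.37 in FLAG-Lhx1-mt. The mitochondrial values are uncertain, since mt-Co2, mt-Co3, mt-Atp6, mt-Atp8, mt-Nd3 and mt-Nd4l stood near or below 17.1 CPM in every embryo while mt-Cytb stood at 10044 to 14300 CPM. The 2 with the smallest p were mt-Atp6 (log2 fold 0.35) and mt-Co3 (0.30).

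Assembly factors insert cofactors and join subunits. For these and the lists after them, edgeR called 3.55% of all tested genes lower and 2.62% higher. Of 17 tested for complex I, 1 was called lower and none higher, with a median log2 fold of -0.14: Ecsit, which acts in the membrane arm's assembly, was at 14.8 and 16.9 CPM in FLAG-Lhx1 and at 29.7 and 26.2 CPM in FLAG-Lhx1-mt (-0.82 ± 0.19, edgeR adjusted p = 0.020). Of 20 for complex IV, 1 was called lower and none higher (median -0.14): Higd2a was at 76.3 and 80.4 against 126 and 121 CPM (-0.66 ± 0.14, edgeR adjusted p = 0.013). Neither kept its call when either FLAG-Lhx1 embryo was left out, with edgeR adjusted p values of 0.128 and 0.051 for Ecsit and 0.072 and 0.060 for Higd2a. Sco2 and Pet117 of the complex IV list had 0 counts in all 4 embryos.

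None was called of 4 assembly factors for complex II (median 0.06), 3 for complex III (median 0.45) and 5 for complex V (median -0.02). In the complex II list Sdhaf1 was at -0.68 (edgeR adjusted p = 0.225) and Sdhaf3 at 0.33 (edgeR adjusted p = 0.287). In complex III the chaperone Ttc19 was at 28.6 and 32.6 against 17.3 and 23.3 CPM (0.59 ± 0.20, edgeR adjusted p = 0.088), and Bcs1l, which inserts the Rieske protein, at 18.0 and 16.5 against 29.1 and 22.97 CPM (-0.59 ± 0.20, edgeR adjusted p = 0.089), so the pair pointed opposite ways. In complex V Atpaf2, which assembles F1, had a log2 fold of -0.65 ± 0.19 (edgeR adjusted p = 0.054). At an unadjusted p under 0.05 by edgeR, 11.3% of all genes were lower and 9.94% higher. By that measure the complex II list had 1 lower, the complex III list 1 lower and 1 higher, and the complex V list 1 lower. Of these lists DESeq2 called 1 gene lower, Atpaf2, and limma-voom called 0. Of all genes DESeq2 called 4.49% lower and 3.1% higher, and limma-voom 3.5% and 2.94%.

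Of 16 genes for cytochrome c and coenzyme Q synthesis, Coq3, a methyltransferase of the coenzyme Q pathway, was called lower (23.6 and 20.2 against 39.6 and 31.1 CPM, -0.69 ± 0.19, edgeR adjusted p = 0.041) and none higher; the list's median was -0.04, and the call was lost without either FLAG-Lhx1 embryo (edgeR adjusted p = 0.054 and 0.278) and without FLAG-Lhx1-mt replicate 1 (edgeR adjusted p = 0.107). Cycs, cytochrome c itself, was at 910 and 889 against 820 and 895 CPM. By edgeR none was called of 18 tricarboxylic acid cycle genes (median -0.17; Mdh2 at -0.39, edgeR adjusted p = 0.132, and Idh3a at -0.36, edgeR adjusted p = 0.147), 8 carriers of adenine nucleotides and phosphate (median -0.19; Slc25a5 at -0.46, edgeR adjusted p = 0.087) or 19 factors of mitochondrial biogenesis (median -0.03). Of the last, Yy1, named above for its motif, had a log2 fold of 0.52 ± 0.16 (edgeR adjusted p = 0.068), and Nrf1 one of -0.34 ± 0.17 (edgeR adjusted p = 0.254). At an unadjusted p under 0.05 edgeR gave 2 cycle genes lower, 1 carrier lower and 1 biogenesis factor higher. Over all genes these shares were 11.3% lower and 9.94% higher. DESeq2 called Slc25a5 lower and Yy1 higher, and limma-voom called Slc25a5 lower. Of all genes DESeq2 called 4.49% lower and 3.1% higher, and limma-voom 3.5% and 2.94%.

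The embryos of the groups differed in markers of cell types, whose part in the subunit results was not tested. Of 18 visceral endoderm markers, 8 were called lower in FLAG-Lhx1 and none higher, and they summed to 2462 and 2789 CPM against 4624 and 4013 CPM. Of 10 epiblast markers, 7 were called lower and 1, Sox2, higher, and the list summed to 418 to 553 against 862 to 1317 CPM. Of 9 neural plate markers 6 were called higher, Sox2 again among them, and the list summed to 224 to 252 against 85.3 to 125 CPM. Over all tested genes edgeR called 3.55% lower and 2.62% higher. Of 10 trophoblast markers only Eomes was called, lower, and of 8 cardiac markers only Myl7, lower; the lists summed to 40.9 to 42.2 against 78.8 to 187 CPM and to 48.8 to 56.6 against 70.8 to 127 CPM, but their median log2 folds were 0.28 and 0.20, opposite in sign to the sums. None was called of 5 primitive blood markers (list sums of 16.2 to 21.7 CPM) or 7 maternal decidua markers (list sums of 16.8 to 20.5 CPM). Of 7 nuclear RNAs Meg3 and Gm42418 were called lower; the list summed to 3441 to 3693 against 5701 to 7214 CPM, while its median log2 fold was 0.33. In whole embryos, fewer cells of a type and less RNA of a gene per cell cannot be told apart.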

How the data were processed

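RNA of 4 single chimeric embryos was made into full-length cDNA libraries by the Geo-seq protocol (10 cycles of preamplification, 0.5 ng of cDNA per Nextera XT library) and read as 100 bp paired ends, per the labels' protocols. The authors deposited raw, unnormalized counts for each Ensembl gene. STAR, featureCounts and Subread and the builds GRCm38 and mm10 are named in the submitters' processing notes; their versions, the annotation, the strand setting and the treatment of reads with several matches were not given in the sources used here. Nextera libraries do not mark strand, so counts where exons of different genes overlap are uncertain: 28 members have such overlap, and it exceeds 20% of exon bases in Ndufa13, Ndufb6 and Atp5o. The 6 forms marked -ps that were left out had 31 to 39 counts per embryo in all. Symbols, lengths, GC contents and positions were looked up in GENCODE vM21 (GRCm38), where 37693 of the IDs (96.2%) were found.

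Genes were filtered with filterByExpr (minimum count 10, minimum total 15), scaled by TMM and compared by the quasi-likelihood F test of edgeR 4.0.16, under R 4.3.3, on group alone, with Benjamini-Hochberg adjustment over 15822 genes. The biological coefficient of variation was 18.2%, and 13.4 prior beside 2 residual degrees of freedom mean that most of a gene's variance estimate was borrowed. Standard errors were derived from the log2 fold and its F statistic. Embryos of a group correlated at 0.982 and 0.978 over log2 CPM.

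DESeq2 1.42.0, limma 3.58.1 (voom), other scalings and filters, GC and length offsets, a replicate block and fits without each embryo were the alternatives. The members and all lists were chosen with earlier results of these data known. Named are every called member, each complex's extremes of fold (at a mean of 5 CPM or more) and highest level per kilobase, isoform pairs, core subunits, members at the edge of the count rule, the 5 nearest to the set's mean profile, up to 4 called genes (or the 2 with the smallest p) of each list, and Lhx1. Members with an adjusted p near the threshold, Ndufa10, Cox6a1 and Cox7a2l, were added after their values were seen, as were Ndufa4's remark, Cycs and the comparison of GC bands. The values of 1 member are not reported here by name; it is counted in the sums and counts and left out of the plots of single genes.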

Additional observations from a re-analysis of the deposited data

How the results depend on the processing

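The 5 members called lower became 9 with the DESeq2 Wald test, where 4.49% of all genes were called lower. They became 2 with GC and length offsets, where 2.57% of all genes were. There were 8 with total counts only, 10 with no count filter and 3 with the length offset alone. For these settings and the replicate block the share of all genes called was not counted, so the members cannot be set against it. Members called higher, 0 at first, were 1 with the length offset alone and 2 with the replicate block plus both offsets, and 0 to 1 in fits without 1 embryo. In the latter the group with 1 embryo left is assumed to vary like the other. The replicate block, an additive term for the replicate number, gave 8 lower and 0 higher, and 4 lower with both offsets; the labels give the number no further meaning, and deviations of same-numbered embryos correlated at 0.016, so it was not used as a pairing. The median log2 fold ran from -0.25 to -0.0037 in fits without 1 embryo and was 0.06 under every fit with a length offset. Sdha, at 0.0003, turned to -0.0042 with DESeq2 size factors and with the DESeq2 Wald test, to -0.055 with total counts only and to -0.061 with no count filter, and ran from -0.086 to 0.070 in fits without 1 embryo. The cause of these changes was not tested. Of 84 members, 46 changed sign under at least 1 of 17 alternatives, all with a log2 fold within 0.22 of 0. The GC-only and length-only offsets and the sets without pseudogenes or without overlapping genes (5 called lower in each) were chosen after seeing the data. At these depths 3 counts are at most 0.153 CPM, so genes such as Cox7b2 and Ndufa4l2 rest on few counts.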
